A study of Homo sapiens with 15 samples.

Results

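L428 is an established cell line of classical Hodgkin lymphoma, known from background as derived from B cells. Its 2 arrays, labelled replicates 1 and 2, are 2 of the 15 arrays in the series and were chosen by their titles. They were set against the 8 arrays of the other Hodgkin lines, which are L1236, KM-H2 and HDLM2 with 2 arrays each and L540 and L540Cy with 1 array each. L540Cy is known as a subline of L540, so their arrays were averaged and L428 was compared with the mean of 4 lines of origin. All these lines carry the label of classical Hodgkin lymphoma, and no genotype, treatment or time is given. From background knowledge, B cells gave rise to L1236 and KM-H2, and T cells to HDLM2 and L540. The remaining 5 arrays hold lines of other B cell malignancies: Namalwa and Reh in duplicate and SU-DHL-4 once. The series design text calls duplicates biological. Each line goes back to 1 tumour, so L428 is 1 specimen of the disease, and what is particular to L428 cannot be told apart from what is particular to that tumour or to its culture.

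Hodgkin and Reed-Sternberg cells are the tumour cells of Hodgkin lymphoma. They descend in most cases from B cells of the germinal centre but have lost most of the B cell programme. Their growth is known to depend on NF-kB and JAK-STAT signalling, and they release chemokines that draw other immune cells around them. Phosphoinositide 3-kinase (PI3K) and MAP kinase signalling pass on signals from cytokine receptors and G protein coupled receptors.

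Expression is given as log2 signal of the RMA method (robust multi-array average), so that a difference of 1 log2 stands for a factor of 2. Each of 19735 genes was represented by its brightest probe set, and differences are L428 minus the mean of the other 4 lines. A gene was called, and is said to have risen or fallen, where the adjusted p of limma was under 0.05 (Benjamini-Hochberg over all genes, two-sided). The spread in that test is the one between duplicate arrays of a line, not between lines, so a call says that L428 differed from the mean of these lines by more than its arrays vary. A called gene is named L428-high where it was at least 1 log2 higher and both L428 arrays lay above all 8 arrays of the other Hodgkin lines, and L428-low in the mirrored case. Duplicate arrays of L428 differed by an SD of 0.240 log2 over all genes, against 0.290 in L1236, 0.301 in KM-H2 and 0.361 in HDLM2.

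In total 2767 genes rose in L428 (14% of those tested) and 3162 fell (16%), 5929 together (30%). Both L428 arrays lay above all 8 other Hodgkin arrays in 1467 genes (7.43%) and below them in 1354 (6.86%). The L428-high genes numbered 723 (3.66%) and the L428-low genes 530 (2.69%). A difference of at least 2 log2 was found in 381 genes that rose (1.93%) and 275 that fell (1.39%). The median over all genes was -0.02 log2. At the edge of the limit of 1 log2, DCK and ZNF33A lay just inside the L428-high genes and DVL2 and CARNMT1 just outside, and AKT1 (-0.999 log2) and FURIN (-0.995) lay just outside the L428-low genes. Set against each line alone, with L428 shared by all 4 comparisons, L428 was higher than L1236 in 2214 genes (11.2%) and lower in 2850 (14.4%). It was higher than KM-H2 in 2796 (14.2%) and lower in 3262 (16.5%), higher than HDLM2 in 2806 (14.2%) and lower in 2985 (15.1%), and higher than L540 in 2915 (14.8%) and lower in 2617 (13.3%). Across the 19735 genes the correlation of the mean profile with that of L428 was 0.931 for L1236, 0.913 for KM-H2, 0.917 for HDLM2 and 0.912 for L540. These values are across genes, which are not independent replicates.

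**Figure D1:**
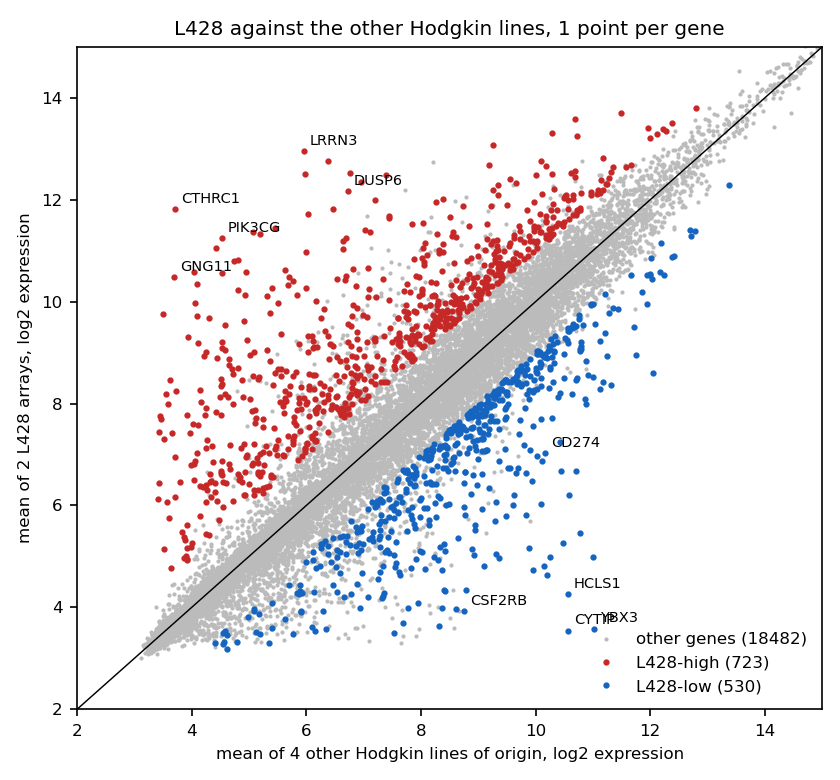
Each point is 1 gene, with the mean log2 expression of the 4 other Hodgkin lines of origin on the horizontal axis and that of the 2 L428 arrays on the vertical axis; the line marks equal levels. The 723 L428-high genes (red) and 530 L428-low genes (blue) reach 8.11 log2 above the line (CTHRC1) and 7.44 log2 below it (YBX3).

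Of the markers of Hodgkin cells, TNFRSF8, IRF4, BATF3, CCR7 and EBI3 were bright in L428. Not all were: the chemokine gene CCL22 had a difference of -1.39 log2 and is described with the other chemokines. In bulk RNA, fewer cells with a transcript and less of it per cell cannot be told apart. TNFRSF8 (CD30) was at 10.64 and 10.27 in the 2 L428 arrays, between the lowest (9.24) and the highest (12.77) of the other 8 arrays. IRF4, a transcription factor of activated B cells, was at 11.83 and 11.53, BATF3 at 13 and 12.7, the chemokine receptor gene CCR7 at 12.49 and 12.24 and EBI3 at 10.59 and 10.58. IRF4, BATF3, CCR7 and EBI3 did not pass the test against the mean of all 4 lines, with differences from -0.29 to -0.04 log2. CCR7 was 0.57 log2 higher against L1236 and KM-H2 only (adjusted p = 0.0119, limma), lower against HDLM2 and L540 only (-0.66 log2, adjusted p = 0.0052) and at -0.60 without KM-H2 (adjusted p = 0.0103). BATF3 was at -0.59 without KM-H2 (adjusted p = 0.0117, limma). IRF4 was called lower against HDLM2 and L540 only (-0.53 log2), without L1236 (-0.39), with limma's trend and robust options (-0.29) and when L540 and L540Cy counted as 2 lines (-0.40). FUT4, whose enzyme makes the CD15 epitope, fell by 0.62 log2 and TNFRSF8 by 0.69 log2, while TRAF1, an adaptor of TNF receptors, rose by 1.75 log2. B cell markers were near background: MS4A1 (CD20) stood at 4.45 and 4.2, CD79A at 5.67 and 5.94 and CD79B at 5.59 and 5.85, all within 0.2 log2 of the other lines' mean. PAX5 fell by 2.04 log2 and POU2AF1 by 1.86 log2, and most of the latter came from L1236, where POU2AF1 was 7.11 log2 above L428. EBF1 rose by 0.57 log2. Of the T cell and myeloid markers, CD3E, CD3G, TRAT1, LYZ and MPO did not pass the test, with levels between 3.41 and 5.23 on both L428 arrays and within 0.1 log2 of the other lines' mean. The T cell markers CD2 and CD3D fell by 1.57 and 0.70 log2 and the myeloid markers CD14 and CSF1R by 0.68 and 1.13 log2. The call of CD2 ended without HDLM2 (-0.17 log2), those of CD3D and CD14 without KM-H2 (0.04 and 0.12 log2), and those of CD3D, CD14 and CSF1R without L428 replicate 2. With all 15 arrays in the fit CD3D and CD14 were not called (adjusted p = 0.111 and 0.0636, limma), nor was CD14 without either L1236 array (0.0538 and 0.0545) or with L540 and L540Cy as 2 lines (0.0928). Without L1236 the difference was 0.5 log2 for TRAF1, -0.98 for PAX5, -0.11 for POU2AF1 (adjusted p = 0.778, limma) and 0.0 for EBF1 (adjusted p = 0.994, limma); EBF1 also lost its call without L540 or either L428 array. The average of probe sets gave -0.96 log2 for PAX5, -1.06 for POU2AF1 and 0.36 for EBF1 (not called). The calls of TNFRSF8 and FUT4 ended without HDLM2 (-0.17 and -0.34 log2), that of TNFRSF8 also without L540 and without L428 replicate 2, and that of FUT4 without L428 replicate 1.

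The largest rise was that of CTHRC1, which encodes a secreted protein of the extracellular matrix. CTHRC1 was at 11.87 and 11.75 in the L428 arrays, against a lowest value of 3.54, a median of 3.66 and a highest of 3.88 in the other 8 Hodgkin arrays. The groups did not overlap, and the difference was 8.11 ± 0.10 log2 (SE, adjusted p = 2.45e-09 by limma, 2 arrays against 4 lines). LRRN3, a leucine-rich repeat protein of the neuronal membrane, was at 13.16 and 12.77, against 4.93, 5.18 and 9.08 (lowest, median and highest). Its difference was 7.01 ± 0.28 log2, with KM-H2 as the nearest line, 4.53 log2 below L428. GNG11, a G protein gamma subunit, was at 10.28 and 10.68 against 3.4, 3.66 and 4.05, a difference of 6.80 ± 0.18 log2. PIK3CG, the catalytic subunit of the PI3K that G protein beta-gamma dimers activate, was at 11.41 and 11.09 against 3.64, 4.31 and 6.44, a difference of 6.73 ± 0.27 log2. TSPAN8, a tetraspanin known from epithelia, was at 10.91 and 11.22 against 4.16, 4.43 and 4.63, a difference of 6.64 ± 0.13 log2. In these 5 genes every L428 array lay above every other Hodgkin array.

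The next of the 12 largest rises were of mixed kinds. ARMCX2, an armadillo-repeat gene of the X chromosome, rose by 6.56 ± 0.11 log2, from 3.72 to 4.24 in the other arrays to 10.5 and 10.67 in L428. ASS1, the enzyme that joins citrulline and aspartate in arginine synthesis, rose by 6.30 ± 0.17 log2, and SLC25A21, a mitochondrial carrier of oxodicarboxylates, by 6.25 ± 0.15 log2. For SNX7, a sorting nexin, L1236 stood only 1.16 log2 below L428 while the other 3 lines were between 7.91 and 8.71 log2 below. TRDV3, a variable segment of the T cell receptor delta locus, had the same shape, with L1236 2.07 log2 below L428 and the others 7.31 to 7.59 log2 below. TFPI2, an inhibitor of serine proteases, rose by 6.26 log2 and PHACTR3, a regulator of protein phosphatase and actin, by 6.06 log2, with KM-H2 2.87 log2 below L428 in the latter. Averaging the probe sets, rather than taking the brightest, gave 4.11 log2 for GNG11 and 3.19 for TRDV3, both still called.

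The largest fall was that of YBX3, a DNA and RNA binding protein of the cold shock domain family. YBX3 was at 3.72 and 3.45 in L428, against 6.21, 12.37 and 13.24 in the other 8 arrays, and the difference was -7.44 ± 0.13 log2 (SE, adjusted p = 1.2e-08 by limma). HDLM2 was the nearest line, 2.71 log2 above L428, and the other 3 lay 8.68 to 9.55 log2 above it. CYTIP, which binds cytohesins and controls the adhesion of leukocytes, was at 3.62 and 3.45 against 8.46, 10.26 and 12.95, a difference of -7.03 ± 0.39 log2. HCLS1, the cortactin relative of blood cells that binds actin, was at 4.63 and 3.89 against 10.04, 10.43 and 11.21, a difference of -6.30 ± 0.20 log2. Both genes were thus near background in L428 and well expressed on all 8 other arrays. CLIC2, an intracellular chloride channel protein, was at 4.63 on both L428 arrays against 9.38, 10.2 and 10.93, a difference of -5.57 ± 0.18 log2. MFNG, a glycosyltransferase that modifies NOTCH receptors, was at 4.95 and 5.03 against 9.49, 10.39 and 10.7, a difference of -5.26 ± 0.13 log2. QDPR, which recycles the cofactor tetrahydrobiopterin, fell by 5.21 ± 0.14 log2 and CSF2RB, the shared receptor chain for interleukin 3, interleukin 5 and GM-CSF, by 4.83 ± 0.21 log2.

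TPRG1 fell by 6.01 log2, DNAJC15, a mitochondrial chaperone relative, by 5.34, CYB5A (cytochrome b5) by 5.30, RAB33A, a small GTPase, by 5.23 and CDYL2, a chromodomain protein, by 4.72 log2. Averaged over probe sets, YBX3 had -3.44 log2, DNAJC15 -2.74, QDPR -2.89, CDYL2 -2.80 and MFNG -2.99, all still called. In YBX3 3 of its 4 probe sets had the sign of the brightest. All probe sets had that sign in 399 of the 459 L428-high genes with over 1 probe set, and in 294 of the 367 L428-low genes.

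**Figure D2:**
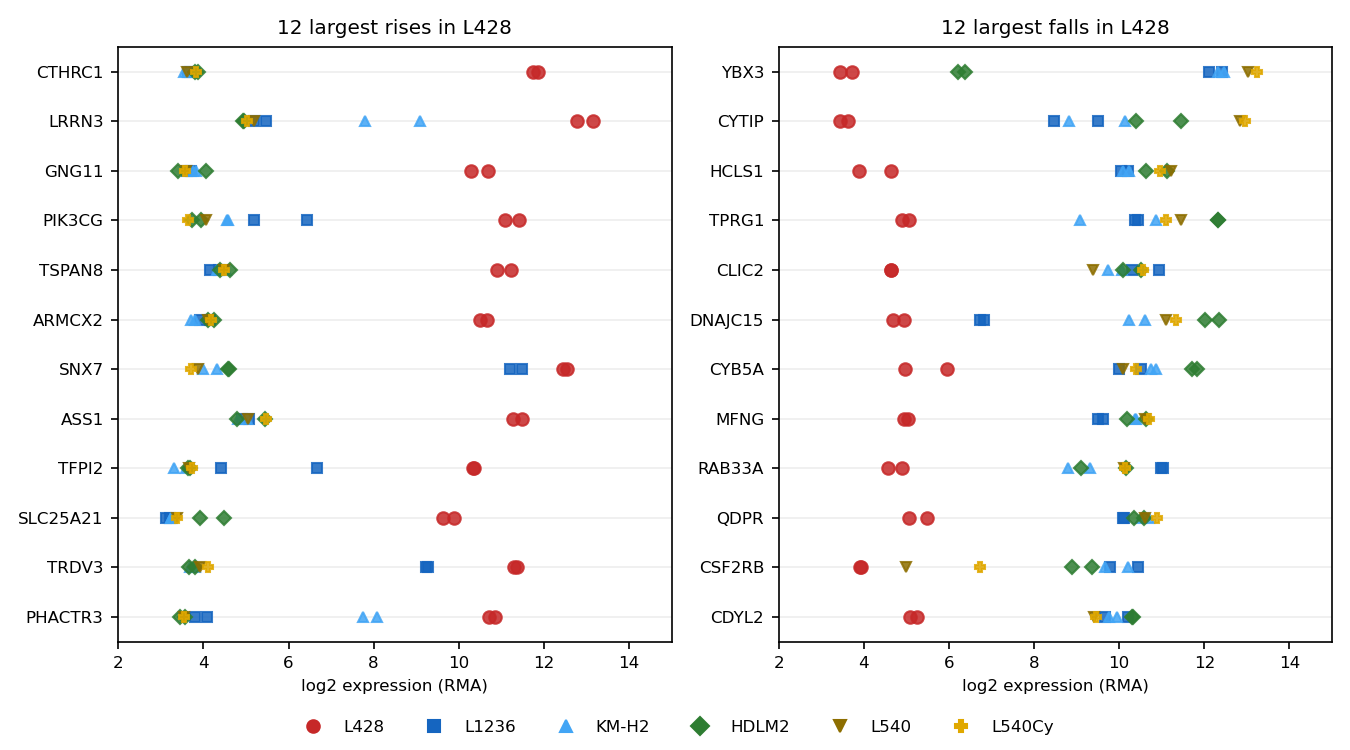
Log2 expression (horizontal axis) of the 12 genes with the largest rises and the 12 with the largest falls in L428, 1 symbol per array and colours for the 6 Hodgkin cell lines. The 2 L428 arrays (red) stand apart from all 8 other arrays in each gene; in CTHRC1 they are at 11.87 and 11.75 against 3.54 to 3.88.

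Taking each line as 1 value, so that the spread is that between the 4 other lines, left 48 genes higher (0.243% of those tested) and 5 lower (0.0253%) by the same limma test. All 48 were L428-high and all 5 L428-low. Without adjustment, 588 and 396 genes had a p under 0.05 in that test. These genes were at one level in the other 4 lines, with an SD among them of at most 0.48 log2 for the 48. In most of the 48 that level was near background, such as a mean of 3.7 for CTHRC1 and 3.65 for IL5, while PHGDH had 6.64. Signals vary little there, so this test favours genes that are dim in all other lines. CTHRC1, GNG11, TSPAN8, ARMCX2, ASS1 and SLC25A21 were among the 48, and so were SPRY2, PHGDH, SERPINB10, IL5, CDH18, KCNMB2, HOXD8 and EHF. HCLS1, CLIC2, QDPR, CDYL2 and FAM78B were the 5 lower genes. LRRN3, PIK3CG, YBX3, CYTIP and every other gene named below did not pass this second test unless the text says so. Among the 48, chosen after their values were seen, were PRKCB, a protein kinase C of B cell receptor signalling (4.09 log2, and 1.70 with the mean of its probe sets), CERS6, a ceramide synthase (4.68 log2), and CYP26A1, which breaks down retinoic acid (4.23 log2).

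The count of rises and falls in each list below stands beside 14% and 16% over all genes tested, and that of L428-high and L428-low members beside 3.66% and 2.69%. Cytokine receptors were lower in L428 more often than higher. Of 42 measured interleukin and growth factor receptors 21 fell and 9 rose, with a median of -0.34 log2, and 7 were L428-low and 3 L428-high. CSF2RB was at 3.92 and 3.93 in L428, against 4.98, 9.51 and 10.43 in the other arrays. L540 was the nearest line, 1.93 log2 above L428, and the others were 5.19 to 6.18 log2 above. IL1R1, the signalling receptor for interleukin 1, was at 4.52 and 4.15 against 5.88, 9.52 and 10.69, a difference of -4.45 ± 0.21 log2. IL27RA fell by 2.79 log2 and IL10RA, the ligand-binding chain of the interleukin 10 receptor, by 2.30 log2.

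Among the rises of this list was IL5RA, the chain that binds interleukin 5 and signals together with CSF2RB. It was at 9.91 and 10.12 in L428 against 5.07, 5.25 and 9.07, a difference of 3.86 ± 0.14 log2. L1236 was 1.04 log2 below L428 in IL5RA and the other lines 4.72 to 4.84 log2 below. IL5 itself, the eosinophil growth factor, was at 7.33 and 7.53 against 3.53, 3.64 and 3.82, a difference of 3.78 ± 0.12 log2 that also passed with the spread between lines (adjusted p = 0.00876, limma). L428 thus had signal for the ligand and the binding chain and almost none for the shared chain. CRLF2, the receptor chain for thymic stromal lymphopoietin, rose by 2.03 log2 and IFNGR1 by 1.22 log2. The average of probe sets gave 2.03 log2 for IL5RA, -2.50 for IL1R1 and -1.5 for IL27RA.

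Among 28 genes of the JAK and STAT pathway 6 rose and 10 fell, with a median of -0.22 log2. STAT4, the factor activated by interleukin 12, was at 10.21 and 10.32 against 4.23, 6.17 and 7.33, a difference of 4.28 ± 0.26 log2. STAT5A rose by 1.33 ± 0.16 log2, from a highest value of 9.46 in the other arrays to 10.44 and 10.35. SOCS2, a feedback inhibitor induced by STAT5, was at 8.09 and 8.49 against 9.99, 11.18 and 12.26, a difference of -2.83 ± 0.18 log2. The kinase PIM2 fell by 1.77 log2 with all 4 lines between 1.59 and 1.86 log2 above L428, and JAK3, the kinase bound to the common gamma chain, fell by 1.33 log2. JAK3 had -0.47 log2 with the mean of its probe sets.

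Of 35 interleukins and growth factors 4 rose and 8 fell, and IL5 was the L428-high one. IL12A fell by 1.55 log2 and IL12B by 1.44 log2, but IL12B was at 3.11 and 3.24 against a median of 3.42 and its difference was -0.19 log2 without KM-H2 (adjusted p = 0.285, limma). The call of IL12A ended without either L428 array (adjusted p = 0.122 and 0.136, limma) and without HDLM2 (0.113), and that of IL12B without L428 replicate 1 (0.0614). Among 35 chemokines 5 rose and 7 fell. CCL1, a ligand of the receptor CCR8, was at 10.58 and 10.06 against 4.95, 5.59 and 6.48, a difference of 4.65 ± 0.15 log2 and the only L428-high chemokine. CCL17, the thymus and activation regulated chemokine that draws CCR4-bearing T cells, was at 12.7 and 12.83 against 6.2, 10.84 and 14.55. It rose by 1.96 log2 against the mean, although L1236 and HDLM2 were 0.46 and 1.74 log2 above L428, and its difference was 0.61 log2 without L540 (adjusted p = 0.0587, limma), 1.26 without KM-H2 and 3.19 without HDLM2. CCL22 was at 6.9 and 6.45 against a highest value of 12.19 and fell by 1.39 log2, nearly all of it from HDLM2 (-0.09 log2 without that line, adjusted p = 0.915, limma). The call of CCL22 also ended without either L428 array (adjusted p = 0.0804 and 0.212, limma) and with L540 and L540Cy as 2 lines (0.0554).

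Of 20 chemokine receptors 2 rose and 3 fell, none of them L428-high or L428-low. CCR4 was at 8.58 and 8.29, close to HDLM2 (0.08 log2 above L428) and over 1 log2 above the other lines. ACKR3, an atypical receptor that takes up CXCL12, was at 3.8 and 3.88, and its difference of -1.96 log2 was -0.4 log2 without KM-H2.

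Subunits of G proteins and of PI3K gave some of the largest rises. Of 17 beta and gamma subunits 3 rose and 1 fell. GNG2 was at 12.02 and 12.19 next to the rise of GNG11, but it stood within 1.31 log2 of L1236, KM-H2 and HDLM2, and its difference of 2.75 log2 was 0.86 log2 without L540. Of 15 alpha subunits 3 rose and 6 fell, and GNAQ, at 5.2 and 5.71, fell by 2.74 log2 with L1236 6.19 log2 above L428 (-1.59 log2 without that line). Among 40 receptors for lipids and nucleotides 4 rose and 5 fell. ADORA3, the adenosine A3 receptor, was at 11.16 and 11.31 against 4.38, 7.29 and 8.62, a difference of 4.55 ± 0.14 log2. The average of probe sets gave 2.68 log2 for ADORA3, 1.28 for GNG2 and -1.77 for GNAQ.

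Of 26 PI3K subunits and phosphoinositide phosphatases 7 rose and 5 fell, and 3 were L428-high. Beside PIK3CG these were INPP4B, a phosphatase that acts on PI(3,4)P2, and PIK3C2G, a class II PI3K. INPP4B was at 8.63 and 8.7 against 3.42, 4.25 and 6.85, a difference of 3.97 ± 0.17 log2. PIK3C2G was at 6.41 and 6.39 against 3.97, 4.19 and 4.74, a difference of 2.16 ± 0.11 log2. In the list of 27 AKT and mTOR genes 2 rose and 7 fell. PHLPP1, a phosphatase that removes an activating phosphate from AKT, was at 4.58 and 4.9 against 7.57, 8.32 and 9.45, a difference of -3.62 ± 0.13 log2. The average of probe sets gave 1.76 log2 for INPP4B and -1.80 for PHLPP1, of which 1 of 2 probe sets had the sign of the brightest.

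Feedback genes of the MAP kinase pathway were split. Of 29 measured 7 rose and 8 fell, with 3 L428-high and 5 L428-low members (a median of -0.11 log2). DUSP6, the phosphatase that inactivates ERK in the cytoplasm, was at 12.14 and 12.19 against 4.26, 6.38 and 9.61, a difference of 5.44 ± 0.21 log2. SPRY2, an inhibitor of receptor tyrosine kinase signalling, was at 7.87 and 8.49 against 3.33, 3.46 and 3.88, a difference of 4.64 ± 0.17 log2. SPRED1, a relative of SPRY2 that binds neurofibromin, rose by 3.12 ± 0.16 log2, with L1236 and KM-H2 the nearest lines at 1.38 and 1.12 log2 below L428. The other direction held DUSP5, the nuclear ERK phosphatase (7.16 and 7.21 against 8.07, 9.57 and 11.36), which fell by 2.61 ± 0.18 log2. DUSP16, which acts on JNK and p38, fell by 2.12 log2, DUSP14 by 1.27 log2 and ETV5, an ETS factor downstream of ERK, by 2.23 log2. Upstream, MET, the receptor for hepatocyte growth factor, was at 13.07 and 13.09 against 5.68, 10.2 and 10.83, a difference of 3.83 ± 0.27 log2, and it was the only L428-high gene among 37 receptor tyrosine kinases (3 rose and 9 fell). ETV5 had -1.29 log2 and DUSP16 -1.09 log2 with the mean of their probe sets.

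**Figure D3:**
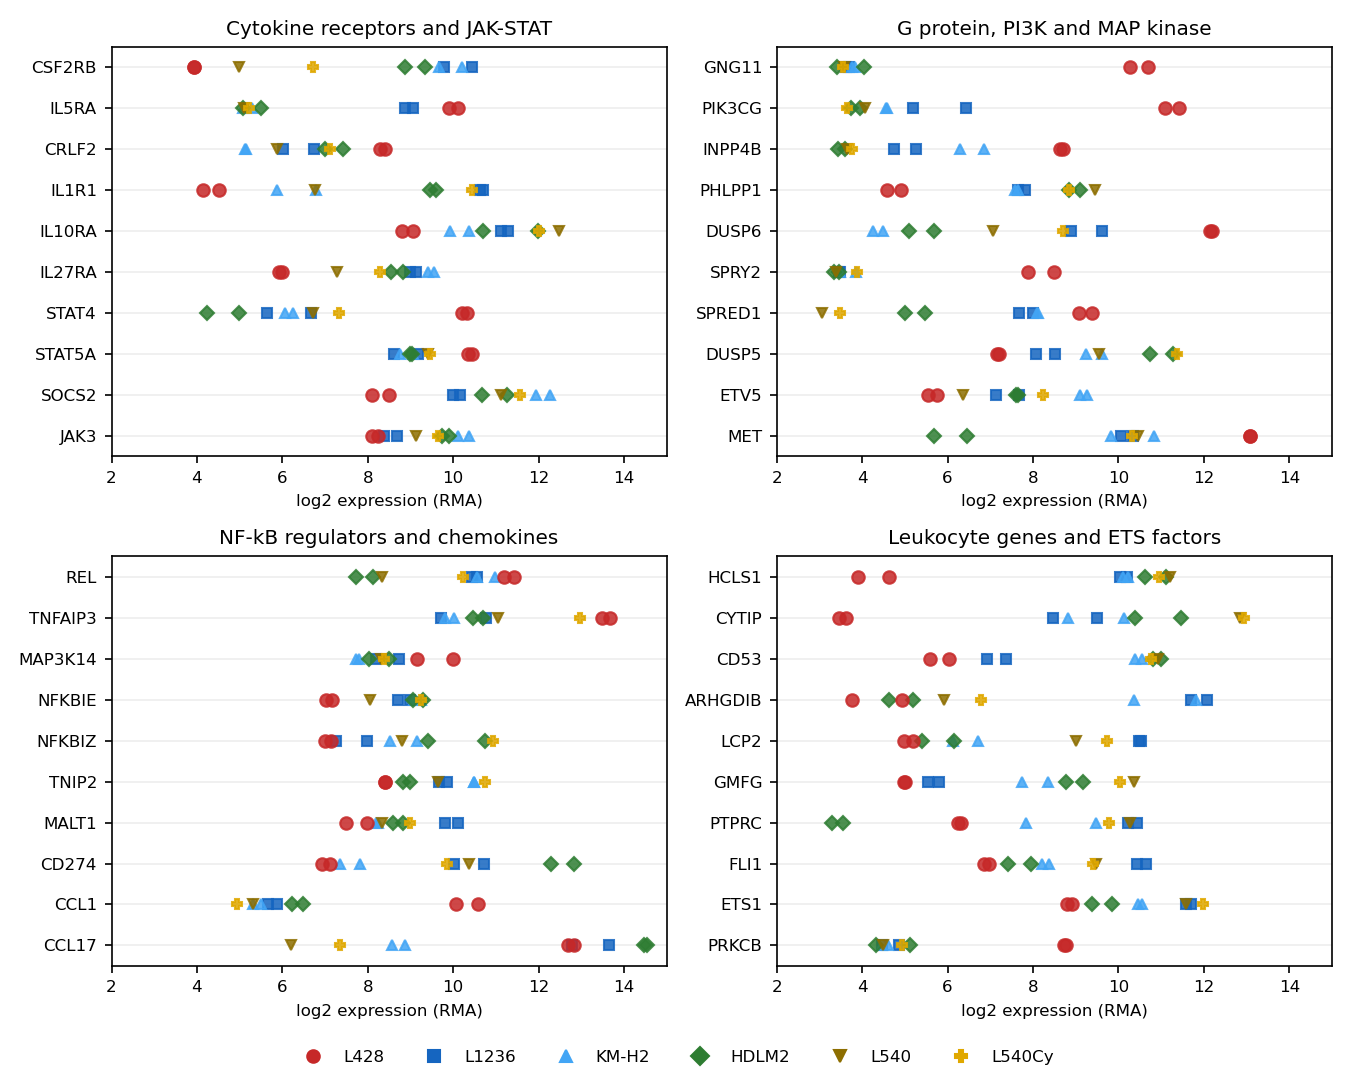
Log2 expression (horizontal axis) of members of 4 groups, 1 symbol per array and colours for the 6 Hodgkin cell lines; the genes shown were chosen with their values known. L428 (red) is at the low end for CSF2RB, PHLPP1, NFKBIE and HCLS1 and at the high end for STAT4, DUSP6, TNFAIP3 and CCL1, while for CCL17 and PTPRC it lies between other lines.

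Regulators of NF-kB differed in both directions. The promoters of 3 of them are shown because they hold a run of letters that NF-kB dimers are known to bind, and because these genes were L428-high (REL and TNFAIP3) or L428-low (NFKBIZ). Each sequence is the 250 bases before the annotated start, 5′ to 3′ on the gene's strand, from RefSeq on GRCh38.p14, with matches to GGGNNTTTCC or its reverse complement GGAAANNCCC in capitals. REL lies at chr2:60881324-60881573, TNFAIP3 at chr6:137867009-137867258 and NFKBIZ at chr3:101827740-101827989, all on the plus strand.
REL: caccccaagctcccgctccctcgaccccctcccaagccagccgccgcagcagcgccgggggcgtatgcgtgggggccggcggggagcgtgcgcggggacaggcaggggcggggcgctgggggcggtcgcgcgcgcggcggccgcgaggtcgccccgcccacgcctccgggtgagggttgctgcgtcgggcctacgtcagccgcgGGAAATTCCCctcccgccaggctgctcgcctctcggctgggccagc
TNFAIP3: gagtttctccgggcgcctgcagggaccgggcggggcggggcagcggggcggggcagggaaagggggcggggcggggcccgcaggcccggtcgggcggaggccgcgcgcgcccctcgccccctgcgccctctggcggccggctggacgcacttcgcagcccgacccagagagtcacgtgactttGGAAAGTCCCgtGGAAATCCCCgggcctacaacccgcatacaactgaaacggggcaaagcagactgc
NFKBIZ: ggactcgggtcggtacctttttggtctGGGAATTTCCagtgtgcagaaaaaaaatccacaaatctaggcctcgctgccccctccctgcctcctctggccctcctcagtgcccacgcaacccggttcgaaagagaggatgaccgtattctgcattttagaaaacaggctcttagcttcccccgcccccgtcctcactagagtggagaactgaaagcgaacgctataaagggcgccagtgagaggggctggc

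REL has 1 match, which begins 46 bases before the start, TNFAIP3 has 2, at 67 and 55 bases before it, and NFKBIZ has 1, at 223 bases before it. Over windows of 300 bases, from 250 before to 50 after the start, 523 of 27305 promoters (1.92%) held such a match on either strand. The share was 2.12% of the 567 L428-high genes with a promoter in the table and 2.21% of the 453 L428-low genes, beside 2.07% of all 15382 measured genes with one. In the list of NF-kB subunits and regulators 7 of 29 promoters held it (24.1%). Within that list the motif stood before genes that rose (REL and TNFAIP3), that fell (NFKBIZ, NFKBIA and TRAF3) and that did not pass (NFKB1 and BCL10, at -0.33 and -0.16 log2). A match is a description of the letters and not of binding.

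Of the 32 NF-kB subunits and regulators 9 rose and 10 fell, with a median of -0.19 log2, and 3 were L428-high and 4 L428-low. TNFAIP3 (A20), a ubiquitin editing enzyme that ends NF-kB signalling, was at 13.48 and 13.68 against 9.72, 10.59 and 12.97, a difference of 2.89 ± 0.23 log2. The highest of the other arrays was L540Cy, and L540 with L540Cy was the nearest line at 1.57 log2 below L428. REL, the c-Rel subunit, was at 11.42 and 11.18 against 7.73, 10.33 and 10.97, a difference of 1.69 ± 0.16 log2. In REL the B cell derived lines were 0.54 and 0.81 log2 below L428 and HDLM2 3.37 log2 below, and the difference was 1.12 log2 without HDLM2. MAP3K14 (NIK), the kinase of the alternative pathway, rose by 1.36 ± 0.23 log2.

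The inhibitor NFKBIE, which holds NF-kB dimers in the cytoplasm, was at 7.17 and 7.02 against 8.05, 9.08 and 9.3, a difference of -1.87 ± 0.12 log2. NFKBIZ, a nuclear cofactor of the family, was at 7.14 and 6.99 against 7.26, 8.98 and 10.94, a difference of -2.04 ± 0.33 log2, with L1236 only 0.56 log2 above L428. TNIP2, which binds A20, fell by 1.44 log2 and MALT1, the paracaspase of the CARD-BCL10-MALT1 complex, by 1.15 log2. Of 38 NF-kB target genes 10 rose and 8 fell, with a median of -0.12 log2, and TNFAIP3 and STAT5A were the L428-high and NFKBIE the L428-low members. In the toll-like receptor pathway 4 of 29 genes rose and 12 fell (a median of -0.22 log2), and the one L428-high gene was NOD2, an intracellular sensor of bacterial cell walls (1.83 log2). Of 27 TNF receptors 2 rose and 8 fell, with TNFRSF1A, the receptor for TNF itself, L428-low at -1.08 log2 (-0.71 without KM-H2). Of 16 TNF family ligands 4 rose and 2 fell, and TNFSF10 (TRAIL) was at 11.48 and 11.24 against a highest value of 11.19, a difference of 1.28 log2 that did not pass with all 15 arrays in the fit (adjusted p = 0.0531, limma).

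Interferon genes, class II presentation and checkpoint molecules differed in both directions, while class I presentation genes fell more often than they rose. Of 50 interferon regulatory factors and stimulated genes 14 rose and 17 fell (a median of -0.18 log2), with 5 L428-high and 2 L428-low. IRF8, a factor of B cells and dendritic cells, was at 10.07 and 10.11 against 5.34, 6.91 and 9.14, a difference of 2.88 ± 0.38 log2. L1236 was the nearest line for IRF8, 1.08 log2 below L428 (not called). Outside the Hodgkin lines IRF8 was at 11.85 and 11.35 in Namalwa, 11.9 in SU-DHL-4 and 10.94 and 6.23 in Reh. MX2, GBP3 and IFIT5 rose by 2.76, 2.51 and 1.72 log2, while OAS1 and IFITM1 fell by 2.38 and 1.71 log2. The nearest line was KM-H2 for MX2 (0.4 log2 below L428), L1236 for GBP3 (0.54) and HDLM2 for IFIT5 (0.56). The first of these 3 gaps and that of GBP3 were not called. Of 22 genes of MHC class I presentation 1 rose and 8 fell. TAP1, a subunit of the peptide transporter into the endoplasmic reticulum, was at 9.93 and 9.78 against 11.1, 11.41 and 11.8, a difference of -1.58 ± 0.12 log2. Of 19 class II genes 5 rose and 2 fell, with CTSS (cathepsin S) up by 1.71 log2 and HLA-DOB down by 2.06 log2 (-1.09 with the mean of probe sets). Among 24 checkpoint and costimulatory molecules 4 rose and 5 fell. CD274 (PD-L1), the ligand of the inhibitory receptor PD-1, was at 7.12 and 6.92 against 7.35, 10.2 and 12.84, a difference of -3.14 ± 0.22 log2, and KM-H2 was the nearest line at 0.56 log2 above L428.

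In the NOTCH pathway 12 of 35 genes fell and 3 rose, with a median of -0.23 log2. Beside MFNG, the ligand JAG2 fell by 1.62 log2 and PSEN2, a catalytic part of gamma-secretase, by 1.21 log2. The ligand JAG1 went the other way, at 8.38 and 7.88 against 4.09, 4.6 and 6.36, a difference of 3.24 ± 0.14 log2 (1.57 with the mean of probe sets). In the TGF-beta and BMP pathway 7 of 58 genes rose and 14 fell. BMPR1B, a type I BMP receptor, was at 9.45 and 10.09 against 3.92, 4.15 and 9.24, a difference of 4.41 ± 0.16 log2, and L1236 stood only 0.64 log2 below L428. LTBP1, which binds latent TGF-beta, rose by 2.02 log2. ACVR1B, the inhibitor of differentiation ID2 and the type II receptor BMPR2 fell by 1.79, 1.5 and 1.24 log2. Of 55 WNT pathway genes 6 rose and 10 fell, and the coreceptor LRP6 rose by 2.27 log2. With the mean of probe sets LRP6 had 1.25 log2, ACVR1B -0.5 and BMPR2 -0.45, and with the most variable probe set BMPR2 was not called (adjusted p = 0.128, limma).

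Genes of lymphoid and myeloid identity differed in single members and in both directions. Of 32 B cell identity genes 5 rose and 9 fell, and LYN, a SRC family kinase, was the one L428-low member, at 9.22 and 9.17 against 9.86, 10.4 and 10.83 (-1.18 log2). Of 22 germinal centre and plasma cell genes 5 rose and 2 fell. MYBL1 was at 10.21 and 10.46 against a highest value of 8.81 and rose by 2.57 log2, and MEF2C rose by 1.47 log2. BACH2, a repressor of plasma cell differentiation, rose by 1.46 log2 (2.70 with the mean of its probe sets and 3.94 with the most variable). Of 28 T cell genes 4 rose and 8 fell. THEMIS, a signalling protein of developing T cells, was at 12.22 and 12.48 against 3.62, 6.76 and 10.9, a difference of 5.40 ± 0.18 log2, and the nearest lines were HDLM2 at 1.73 and KM-H2 at 2.68 log2 below L428. GATA3, at 12.77 and 12.51, rose by 1.28 log2 (0.7 without L540), CD4 fell by 2.12 log2 (-1.38 without L540) and RUNX3 by 1.14 log2. In CD4, L428 was level with L1236 and HDLM2 (-0.13 and -0.09 log2, neither called), and the fall came from KM-H2 and L540 (-3.92 and -4.34 log2). With all 15 arrays in the fit RUNX3 and LYN were not called (adjusted p = 0.521 and 0.146, limma), although their differences were the same. The Reh duplicates, which enter the spread of that fit, were at 8.79 and 3.86 in RUNX3 and at 10.5 and 7.8 in LYN. The mean of probe sets gave 0.97 log2 for MYBL1 and -1.16 for CD4.

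Of 11 SLAM family genes 2 rose and 2 fell. SH2D1B (EAT-2), an adaptor of SLAM receptors known from NK cells, was at 11.94 and 12.04 against 3.76, 7.2 and 10.64, a difference of 4.80 ± 0.18 log2. It was shared in part with L540 and L1236, 1.5 and 2.0 log2 below L428. CD244, a SLAM receptor, rose by 1.43 log2 (0.76 with the mean of probe sets). NK and cytotoxic genes were low in L428: of 17 measured 1 rose and 4 fell, and NKG7, PRF1 and GZMB were at 4.99 to 5.1, 6.19 to 6.31 and 4.83 to 5.3. Their differences of -1.86, -1.56 and -1.39 log2 came mainly from 1 line each, since NKG7 had -0.26 and GZMB 0.46 log2 without L540 and PRF1 -0.04 without HDLM2, none of them called. In NKG7, L428 was also below HDLM2 (-1.28 log2) and above L1236 (0.43 log2), both called. Of 35 myeloid and dendritic cell genes 2 rose and 4 fell. FSCN1 (fascin), an actin bundling protein of dendritic and Hodgkin cells, was at 12.66 and 12.88 against 7.54, 10.42 and 11.07, a difference of 2.68 ± 0.13 log2. IDO1, which breaks down tryptophan, rose by 1.57 log2. Of 17 Fc receptor genes 1 rose and 4 fell, and FCGRT was the L428-high one (1.07 log2). Of 7 GIMAP genes 1 rose and 2 fell, and GIMAP8 rose by 2.42 log2 (1.36 with the mean of probe sets).

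Single surface and matrix genes normally found in epithelial or neural cells were among the rises, but most of their lists did not rise as a whole. More members fell than rose among tetraspanins, synaptic adhesion proteins and matrix glycoproteins. More rose than fell among epithelial junction and keratin genes (17.9% rose) and cadherins (13%), beside 14% of all genes. Of 32 tetraspanins 7 rose and 11 fell, and 4 were L428-high. TSPAN33 was at 12.29 and 12.09 against 8.4, 9.27 and 10.11, a difference of 2.93 ± 0.14 log2, TSPAN13 rose by 3.45 log2 and TSPAN2 by 2.50 log2. CD53, the tetraspanin of leukocytes, went the other way, at 6.04 and 5.59 against 6.93, 10.64 and 10.99, a difference of -4.02 ± 0.16 log2. Of 39 epithelial junction and keratin genes 7 rose and 2 fell. TJP1 (ZO-1), a scaffold of tight junctions, was at 9.0 and 8.85 against 3.51, 3.93 and 6.1, a difference of 4.72 ± 0.27 log2, and occludin (OCLN) and CLDN12 rose by 1.72 and 1.06 log2. Of 46 cadherins 6 rose and 2 fell, with CDH18 up by 3.06 ± 0.19 log2 and CDH8 by 1.66 log2, and of 48 leucine-rich repeat and synaptic adhesion proteins 3 rose and 11 fell, with CNTN1 up by 1.81 log2. Other probe sets of CDH8 and CNTN1 gave more (5.47 and 3.48 log2 with the most variable one), and the mean of probe sets gave 1.40 log2 for TSPAN2, -1.60 for CD53, 3.07 for TJP1 and 0.94 for OCLN. CLDN12 was not called without L428 replicate 1 (adjusted p = 0.0605, limma).

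Of 25 integrins 5 rose and 5 fell. ITGA4, the alpha 4 chain that binds VCAM-1 and fibronectin, was at 10.29 and 10.2 against 3.72, 7.7 and 9.25, a difference of 3.16 ± 0.12 log2 (2.05 without HDLM2), and ITGA3 fell by 1.99 log2. Among 84 collagens and matrix glycoproteins 7 rose and 12 fell. Tenascin C (TNC) was at 7.42 and 7.79 against 3.6, 3.96 and 4.73, a difference of 3.58 ± 0.13 log2, osteopontin (SPP1) rose by 3.45 ± 0.52 log2 and COL22A1 by 3.10 ± 0.17 log2. Fibrillin 1 (FBN1) was at 7.09 and 6.64 against 9.07, 10.19 and 10.74, a difference of -3.25 ± 0.19 log2. Proteases of the plasminogen system parted: PLAU, the urokinase gene, was at 8.83 and 7.73 against 5.24, 6.06 and 6.83 and rose by 2.22 ± 0.26 log2. PLAT, tissue plasminogen activator, was at 3.7 and 3.58 against 4.45, 8.97 and 10.98, a difference of -4.67 ± 0.15 log2. TIMP1, an inhibitor of matrix metalloproteases, fell by 2.80 ± 0.17 log2 with all lines 2.15 to 3.03 log2 above L428, and LOXL3, a lysyl oxidase, by 2.82 log2. ADAM9 and ADAM23 rose by 1.53 and 1.38 log2, and over the 49 proteases and inhibitors 5 rose and 10 fell. The mean of probe sets gave 1.25 log2 for TNC, where 2 of 3 probe sets had the sign of the brightest, and 1.73 for SPP1.

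Among 31 semaphorins, plexins and neuropilins 7 rose and 5 fell. The guidance cue SEMA5A rose by 1.74 log2, SEMA4C by 1.16 and the receptor PLXNB2 by 1.42 log2 (0.56 with the mean of probe sets, 0.78 without L540). SEMA4D (CD100) fell by 2.44 log2 (-1.62 with the mean of probe sets), PLXNA1 by 1.25 (-0.5) and SEMA4B by 1.24 log2 (-0.8 without HDLM2). Of 21 ephrins and Eph receptors 1 rose and 3 fell, none L428-high or L428-low. EPHB1 was at 12.31 and 12.09, level with L1236 (0.14 log2 above L428) and over 8 log2 above KM-H2 and L540. EFNB2, a ligand of EphB receptors, was at 4.11 and 4.09 and its difference of -2.67 log2 was -1.61 without L1236. In EFNB2, L428 was level with HDLM2 and L540 (-0.09 and -0.19 log2, neither called) and below L1236 and KM-H2 (-5.84 and -4.56 log2). Of 37 annexins, galectins and S100 proteins 3 rose and 12 fell, with ANXA2 down by 1.46 log2 and S100A4 by 1.89 log2 (-0.45 without HDLM2).

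**Figure D4:**
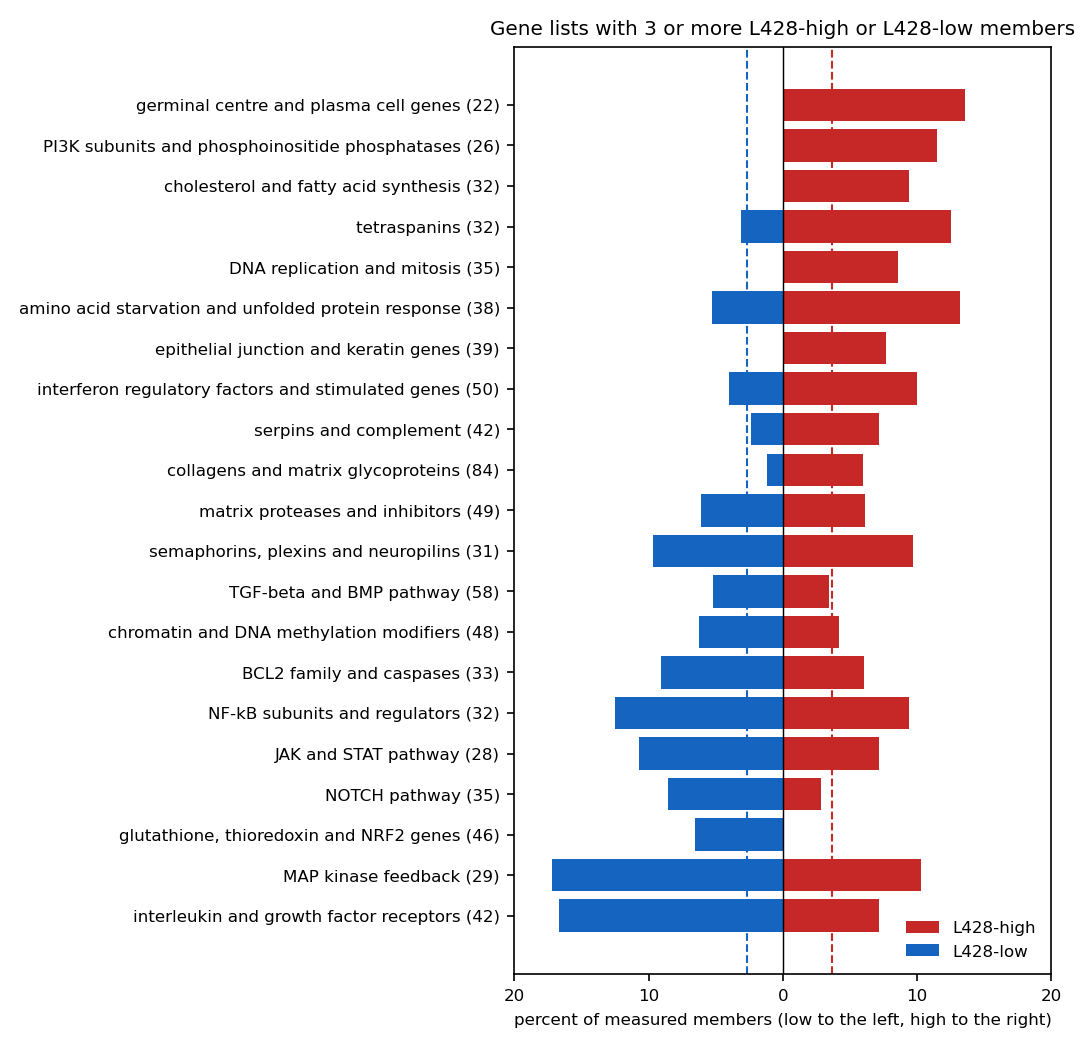
Percent of the measured members of a gene list (number in brackets) that were L428-high (red, to the right) or L428-low (blue, to the left), for lists with 3 or more of either; dashed lines mark the share over all 19735 genes (3.66% high and 2.69% low). Receptors of interleukins and growth factors have 16.7% low members and MAP kinase feedback genes 17.2%.

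Proliferation genes rose more often than they fell. Of 35 genes of DNA replication and mitosis 17 rose and 1 fell, with a median of 0.47 log2. MCM10, a factor of replication origin firing, was at 12.52 and 12.44 against 8.21, 10.16 and 11.19, a difference of 2.47 ± 0.15 log2. GINS2, a part of the replicative helicase, rose by 1.99 log2 (0.9 with the mean of probe sets) and the mitotic kinase AURKB by 1.22 log2. The differences of the whole list lay between -0.63 and 2.47 log2. Of 31 cyclins, CDKs and CDK inhibitors 8 rose and 6 fell, and CDKN1A (p21), the inhibitor induced by p53, was at 7.05 and 6.9 against 8.89, 9.72 and 11.89, a difference of -3.06 ± 0.19 log2. Among 23 p53 target genes 3 rose and 7 fell, with TIGAR down by 1.01 log2 and RRM2B up by 1.07 log2. Of 33 BCL2 family and caspase genes 8 rose and 9 fell. CASP1 and CASP4, the inflammatory caspases, were at 5.05 and 5.16 and at 4.62 and 4.77, and fell by 2.89 ± 0.12 and 2.91 ± 0.14 log2. BCL2, which blocks mitochondrial apoptosis, was at 6.82 and 7.33 against 8.83, 9.1 and 9.63, a difference of -2.07 ± 0.14 log2, and BIRC5 (survivin) rose by 1.06 log2. With the mean of probe sets BCL2 had -0.62 and CASP4 -1.57 log2, both called.

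Of 48 chromatin and DNA methylation modifiers 8 rose and 12 fell. EED, a subunit of the polycomb complex that methylates histone H3, rose by 1.19 log2 and HDAC2 by 1.03 log2 (1.68 with the most variable probe set). DNMT3A, a de novo DNA methyltransferase, fell by 1.77 log2 (-0.93 with the mean of probe sets) and KDM2B by 1.43 log2 (-0.77 without KM-H2). Of 31 HOX cluster genes 6 rose and 7 fell. HOXD8 was at 6.37 and 6.56 against 4.2, 4.34 and 4.44, a difference of 2.14 ± 0.10 log2. HOXC6 was at 5.08 and 5.02 against 5.35, 10.04 and 11.52, a difference of -4.25 ± 0.25 log2, with L540 as low as L428 to within 0.59 log2. Of 24 AP-1, MAF and ATF factors 3 rose and 6 fell, with FOSL1 down by 1.42 log2 (-0.34 against L1236, not called). Of 33 cancer-testis antigens 3 rose and 12 fell, and SPANXB1 had -1.55 log2 (-0.39 without L1236, not called). Of 25 MYC network and ribosome biogenesis genes 6 rose and 4 fell, and of 38 replication-dependent histone genes 2 rose and 6 fell.

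Metabolic lists held several strong members. Of 38 genes of amino acid starvation and the unfolded protein response 9 rose and 9 fell, and 5 were L428-high. PHGDH, the first enzyme of serine synthesis, was at 11.14 and 11.27 against 6.38, 6.56 and 7.17, a difference of 4.56 ± 0.13 log2 that also passed with the spread between lines (adjusted p = 0.0219, limma). PSAT1, the next enzyme of that path, was at 10.9 and 10.8 against 11.6, 12.15 and 12.3, a difference of -1.17 ± 0.15 log2. The amino acid transporters SLC1A4 and SLC7A5 rose by 2.70 and 1.13 log2, CRELD2 by 1.34 log2, and the chaperone DNAJC3 fell by 1.58 log2. Of 37 glycolysis and hypoxia genes 13 rose and 4 fell, with a median of 0.18 log2. BNIP3, a mitophagy receptor induced by hypoxia, was at 12.58 and 12.81 against 3.77, 10.8 and 11.41, a difference of 3.52 ± 0.17 log2 (1.73 without L540). PFKP, a phosphofructokinase, rose by 1.99 log2 but lay within 0.92 log2 of L1236, KM-H2 and HDLM2 (0.57 without L540, and 1.24 as the average of probe sets).

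Of 32 genes of cholesterol and fatty acid synthesis 10 rose and 3 fell, with a median of 0.21 log2. STARD4, a sterol carrier, was at 10.6 and 10.73 against 8.84, 9.37 and 9.78, a difference of 1.31 ± 0.17 log2. INSIG2, which holds back sterol sensing, was at 9.62 and 10.66, and its rise of 1.18 log2 was not called without L428 replicate 2 (0.66 log2, adjusted p = 0.317, limma) or without L1236 (adjusted p = 0.0505, limma). ELOVL6, a fatty acid elongase, rose by 1.95 log2, was level with KM-H2 (0.04 log2) and had 1.12 log2 without L540. Of 46 glutathione, thioredoxin and NRF2 genes 17 fell and 6 rose, with a median of -0.24 log2. NQO1, a quinone reductase, was at 7.11 and 7.12 against 8.49, 9.53 and 10.27, a difference of -2.34 ± 0.10 log2. HMOX1 (heme oxygenase 1) fell by 2.20 log2 and PRDX1 by 1.43 log2. Of 24 metallothionein and heat shock genes 2 rose and 8 fell, with HSPH1 down by 1.53 log2.

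Of 27 eicosanoid enzymes 6 rose and 5 fell. PLA2G4A, the cytosolic phospholipase that releases arachidonic acid, was at 11.9 and 12.12 against 4.76, 8.71 and 10.99, a difference of 3.63 ± 0.27 log2, and the epoxygenase CYP2J2 rose by 1.35 log2. Of 42 serpins and complement genes 6 rose and 7 fell. SERPINB9, an inhibitor of granzyme B, was at 10.5 and 10.48 against 3.82, 6.03 and 7.21, a difference of 4.80 ± 0.46 log2 (2.92 with the mean of probe sets). SERPINB10 was at 8.25 and 8.29 against 3.92, 4.18 and 4.32, a difference of 4.13 ± 0.13 log2, and complement factor I (CFI) rose by 3.69 log2 (2.28 without KM-H2). SERPINI1 fell by 1.54 log2 but was not called with all 15 arrays in the fit (adjusted p = 0.0507, limma). Of 56 potassium channel genes 7 rose and 8 fell. KCNQ5 rose by 3.22 log2 (2.01 with the mean of probe sets) and stood 0.71 log2 above KM-H2. KCNMB2 rose by 2.17 log2 (4.24 with the most variable probe set, and not called with all 15 arrays, adjusted p = 0.0791, limma). The Reh duplicates were at 8.57 and 4.27 in KCNMB2. KCNA3, a channel of lymphocytes, fell by 1.65 log2 and KCNC4 by 1.78 log2 (-1.05 with the mean of probe sets). Of 19 RGS proteins 3 rose and 5 fell, and of 7 cytidine deaminases of the APOBEC3 and AID family 1 rose and 0 fell.

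Across all 63 lists, 95 of the 1965 distinct measured genes were L428-high (4.83%, beside 3.66% of all genes tested) and 68 L428-low (3.46%, beside 2.69%), and 8 lists held neither kind. The lists were chosen with earlier results of these data known, so nothing is read from these shares.

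A further 3 groups were put together after their values were seen, so their counts are a description only. Of 33 surface and cytoskeleton genes of leukocytes 15 fell and 5 rose, with 6 L428-low members and a median of -0.35 log2. Beside HCLS1, CYTIP and CD53 these were LCP2 (SLP-76), an adaptor of T cell receptor signalling, at 5.18 and 4.97 against 5.41, 7.85 and 10.52, and GMFG, an actin regulator of blood cells, at 5.0 and 4.98 against 5.54, 8.56 and 10.37. ARHGAP30 was the weakest of the 6 at -1.02 log2 (-0.46 with the mean of its probe sets). ARHGDIB fell by 4.22 log2 (-2.60 with the mean of probe sets, which gave -1.61 for LCP2) but was within 0.56 log2 of HDLM2, and PTPRC (CD45) fell by 1.83 log2 while it stood 2.85 log2 above HDLM2. Other leukocyte genes remained bright, such as LCP1 (L-plastin) at 11.78 and 11.71 (-0.55 log2) and TMSB4X (thymosin beta 4) at 14.48 and 14.57 (0.97 log2).

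Of 27 ETS family transcription factors 12 fell and 2 rose, with 6 L428-low members and 1 L428-high, and a median of -0.42 log2. ETS1 was at 8.79 and 8.9 against 9.39, 11.06 and 11.97, a difference of -2.04 ± 0.13 log2. FLI1 was at 6.97 and 6.86 against 7.41, 8.89 and 10.65, a difference of -2.07 ± 0.15 log2 (-0.86 with the mean of probe sets, of which 5 of 6 had the sign of the brightest). ERF, a repressor that ERK exports from the nucleus, fell by 1.68 log2, ETV3 by 1.58 (-0.96 with the mean of its probe sets) and ELF1 by 1.01 log2, beside ETV5. EHF, an ETS factor of epithelia, was the L428-high member at 7.37 and 6.9 against 3.9, 4.23 and 4.71, a difference of 2.90 ± 0.17 log2 (6.02 with its most variable probe set). SPIB, an ETS factor of B cells, also rose, by 1.75 log2 (0.70 with the mean of its probe sets), but L428 was at -0.49 log2 against KM-H2 (not called) and -0.80 against HDLM2.

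ARMCX2 belongs to a cluster of related genes on the X chromosome with the BEX and TCEAL families. Of 18 measured, 7 rose and 3 fell, and 3 were L428-high. BEX5 was at 9.96 and 10.25 against 3.72, 5.23 and 7.3, a difference of 4.79 ± 0.15 log2, and ARMCX3 rose by 1.40 log2. TCEAL1 and TCEAL8 rose by 3.11 and 2.72 log2 but were higher still in KM-H2, by 0.28 and 0.70 log2. BEX3, ARMCX5 and TCEAL9 were near background in L428, from 3.51 to 4.43, and their falls came from 1 line each, L1236 for BEX3 and ARMCX5 and KM-H2 for TCEAL9.

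Genes that lie next to one another changed together in places. Runs were taken as at least 4 measured neighbours, in the gene order of RefSeq (GRCh38.p14), that were all called in one direction with differences of at least 0.5 log2; 2285 genes (11.6%) met this upward and 2625 (13.3%) downward. There were 26 runs that were higher, with 123 genes, and 33 that were lower, with 146 genes. The longest held 8 genes, from CDK19 to TRAF3IP2-AS1, with a median of 1.26 log2 and a range of 0.73 to 3.14. A run of 7 genes from FBXL4 to CCNC had a median of 1.44 log2 and one of 5 genes from SMPD2 to FIG4 a median of 1.45 log2. PIK3CG stood in a run of 4 with PRKAR2B, HBP1 and COG5 (a median of 1.17 log2), LRRN3 in one with THAP5, DNAJB9 and IMMP2L (0.92 log2) and TSPAN33 in one of 6 with IRF5 and TNPO3 (1.31 log2). PIK3CG and LRRN3, at 6.73 and 7.01 log2, had the largest difference of their run.

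The lower runs held several of the falls described above. BCL2 and PHLPP1 are neighbours in a run of 5 with ZCCHC2, KDSR and VPS4B, with a median of -2.07 log2. MALT1 stood in a run with NEDD4L, ALPK2 and ZNF532 (-1.14 log2), and ZNF407, PTGR3 and TSHZ1 in another (-2.14 log2). CYTIP was 1 of 6 genes from GPD2 to ACVR1 (-1.59 log2). HLA-DOB, TAP2, PSMB8, TAP1 and PSMB9 formed a run with a median of -0.94 log2, and SOCS2 stood in one of 5 with UBE2N and CRADD (-0.98 log2). JAG2 was 1 of 5 from CDCA4 to BRF1 (-0.70 log2). Copy number was not measured here, and its part in these runs was not tested.

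**Figure D5:**
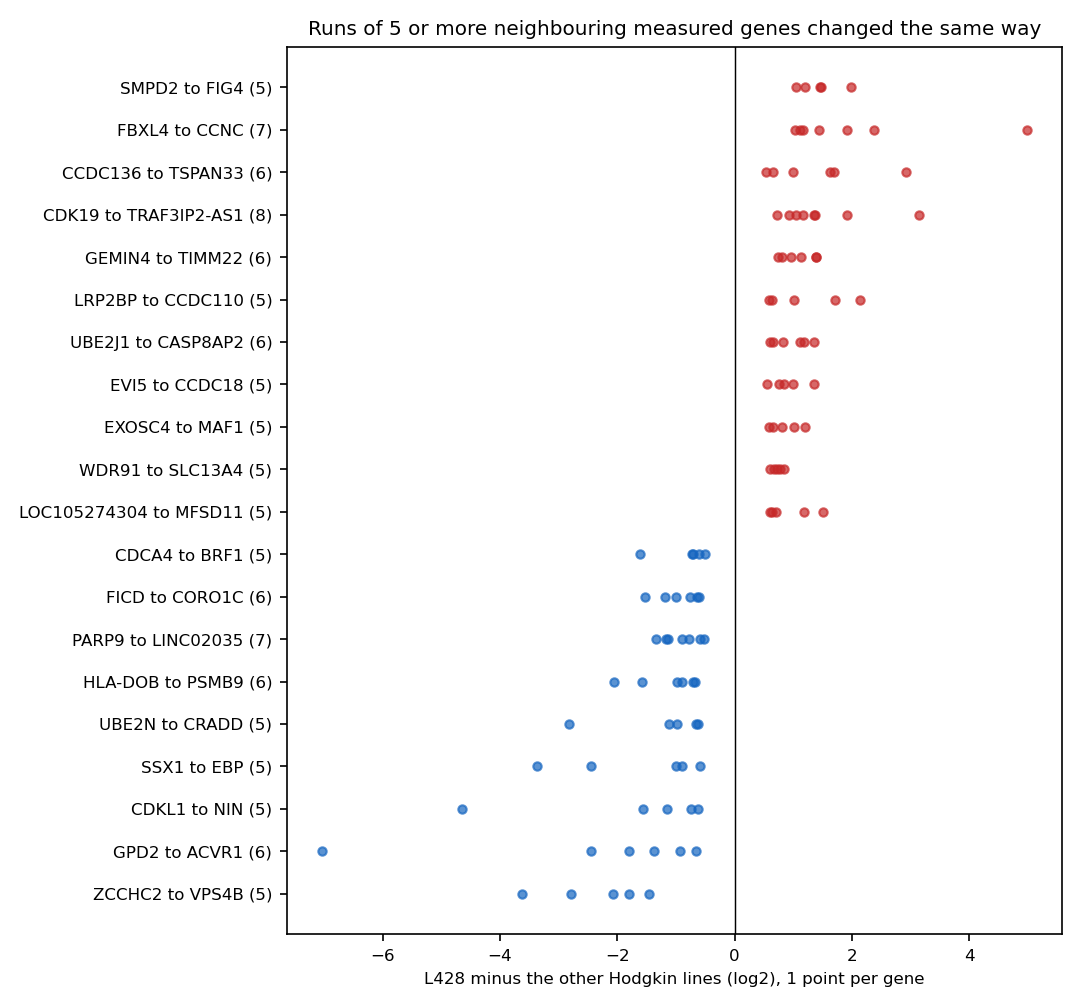
Difference of L428 from the other Hodgkin lines (horizontal axis, log2) for each gene in the runs of 5 or more neighbouring measured genes that were called in one direction; each row is 1 run, named by its first and last gene with the number of genes in brackets. The run from ZCCHC2 to VPS4B has a median of -2.07 log2 and the longest, from CDK19 to TRAF3IP2-AS1, a median of 1.26 log2.

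The levels of L428-high and L428-low genes in the non-Hodgkin lines are given as a description. The choice of these genes already placed both L428 arrays beyond all other Hodgkin arrays, so only the non-Hodgkin arrays add to the counts below. Genes chosen for an extreme level in L428 also tend to lie nearer the other Hodgkin mean in any further line. No share over all genes stands beside these counts, so nothing is read from their size. Of the 723 L428-high genes 542 (75%) were higher in both L428 arrays than in every other array of the series, and of the 530 L428-low genes 275 (51.9%) were lower than in every other array. In 150 L428-high genes (20.7%) Namalwa was nearer to L428 than to the other Hodgkin mean, in 188 (26%) SU-DHL-4 and in 210 (29%) Reh. For the L428-low genes the counts were 263 (49.6%), 264 (49.8%) and 241 (45.5%). The duplicates of Reh differed in 22 genes marking SU-DHL-4 (over 3 log2 above all arrays but Reh replicate 1): the first Reh array was higher than the second by 4 log2 in the median. With Reh replicate 2 alone the counts for Reh were 232 (32.1%) and 229 (43.2%). CTHRC1 was at 8.78 and 8.55 in Reh and GNG11 at 9.1 and 10.23, while in Namalwa and SU-DHL-4 both were at 3.96 or lower. PIK3CG was high in all non-Hodgkin arrays, at 10.41 and 10.07 in Reh, 9.66 and 8.61 in Namalwa and 11.01 in SU-DHL-4. For PIK3CG the other Hodgkin lines were thus the low ones. TSPAN8 and LRRN3 were low in all non-Hodgkin arrays, at 4.37 to 4.77 and 4.86 to 5.27. In 127 L428-high genes all other Hodgkin arrays were under 6 log2, and in 162 L428-low genes L428 was under 6 log2.

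Promoter composition was a further property that the choice of genes did not use. In the same windows of 300 bases, a CpG-rich promoter (GC share of at least 0.5 and observed over expected CpG of at least 0.6) was found for 71.4% of the 567 L428-high genes with a promoter in the table, 76.8% of the 453 L428-low genes and 64.4% of all 15382 measured genes with one. Expression level was not matched in this description.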

How the data were processed

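The deposited table holds log2 signals of 54675 probe sets on 15 Affymetrix U133 Plus 2.0 arrays, made by the authors with RMA per the submitters' processing notes; version and settings: not given in the sources used here. RMA compresses differences near background, so differences of genes that are dim in one group are understated, and the number of arrays limits the precision. Array medians lay between 5.499 and 5.565.

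From these values, 62 control probe sets, 1801 with several gene symbols and 11721 with none were left out. Of the 41091 with 1 symbol, 41037 matched a RefSeq gene by Entrez identifier (GRCh38.p14) and the other 54 were left out. Each gene was read from its brightest probe set, by the mean of the 15 arrays. The files name no genome build, so RefSeq gave gene names, gene order and promoter sequences only. Some genes are not analysed here.

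The 10 Hodgkin arrays were fitted with 1 mean per line (lmFit and eBayes, limma 3.58.1, R 4.3.3, with 4 residual and 4.54 prior degrees of freedom). L540 and L540Cy, with a single array each, were taken to vary as the duplicated lines do. The test measures the spread between duplicates, which the design text calls biological. On simulated data with 19735 genes, the fit called 96 of 100 genes changed by 1 log2, 99 of 100 changed by 2 log2, and 18 unchanged genes. In unchanged genes the simulated L428 was set to the weighted mean of the other lines, and arrays varied independently. Real lines differ from one another and same-numbered arrays deviated together, so the 18 calls do not give the rate of false calls in the real data. Same-numbered arrays of the 4 duplicated lines deviated together (correlations 0.247 to 0.355 over 6 pairs of lines), so the replicate number was also used as a block.

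L428, the gene lists and the rule for named genes were chosen with earlier results of these data known. The rule took the 12 largest rises and falls among L428-high and L428-low genes, up to 4 of each per list, the 2 largest differences where a list had neither, and fixed markers. Alternatives changed the arrays or lines used, the unit of spread, the probe set, a filter on dim genes (under 6 log2, or under the median gene), the normalization, the variance model and the size asked for, and left out arrays and lines in turn. The fit of the 8 numbered arrays with the block, and the 3 added gene groups, were chosen after seeing the data. Tables were handled with Python and figures drawn with matplotlib. The result of 1 gene list is not reported here.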

Additional observations from a re-analysis of the deposited data

Results flagged for a closer look

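In 8 of the 215 named genes, 1 of the 8 other Hodgkin arrays lay far from the remaining 7 by Dixon's criterion. Chance alone meets that criterion in about 1 in 20 groups of independent values from 1 normal distribution. The arrays here include duplicates of L1236, KM-H2 and HDLM2, so that rate does not apply to them and nothing is read from the count. For TNFAIP3 the array of L540Cy had 12.97 and the next highest 11.04, for CDH8 L540Cy had 5.64 and the next 4.87, and both L428 arrays were still higher. L540Cy was low for CASP1 (5.72, with the next lowest at 7.75) and for ELOVL6 (3.75, with the next at 7.2). The array of L540 was low for NFKBIE (8.05, with the next at 8.72) and high for CASP4 (9.08, with the next at 7.71). For TFPI2 L1236 replicate 2 had 6.68 and the next highest array 4.41, and for the cytotoxic gene GNLY L1236 replicate 1 had 4.63 and the next lowest 4.99. Of these 8, 6 concern L540 or L540Cy, which are 1 array each and enter as a mean. An array with a duplicate at a similar level cannot be flagged, so the design itself favours flags on L540 and L540Cy.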

How the results depend on the processing

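Of the 200 called genes among those named, none lost its call or changed direction when the replicate number was used as a block, and the block gave 3214 genes higher, 3644 lower, 723 L428-high and 530 L428-low. With line means as the unit, 48 genes were higher and 5 lower, with 48 L428-high and 5 L428-low, and 17 of the 200 named genes kept their call. Asking for a difference of at least 1 log2 (treat) left 568 higher, 469 lower, 413 L428-high and 253 L428-low. Against single lines it left 502 higher and 595 lower than L1236, 674 and 820 for KM-H2, 676 and 754 for HDLM2 and 857 and 605 for L540. Fewer lines to lie above or below gave 985 L428-low genes against L1236 and KM-H2 only, and 1197 L428-high and 1011 L428-low against HDLM2 and L540 only. Leaving out 1 array or line in turn gave 1707 to 2933 higher genes, 1893 to 3363 lower, 704 to 913 L428-high and 535 to 698 L428-low. The lowest counts of higher and lower genes came without L428 replicate 2. The ranges against 1 line, arrays left out, were 1470 to 2420 higher and 1955 to 3069 lower (L1236), 1988 to 3031 and 2370 to 3448 (KM-H2), 2045 to 2752 and 2143 to 2892 (HDLM2), and 2109 to 3110 and 1860 to 2825 (L540). Direction turned in few named genes. Against L1236 and KM-H2 only, RGS1 had -0.67, NKG7 0.25, PRF1 0.06, MYCL -0.06, TNFRSF8 0.41, CD2 0.16 and GZMB 0.65 log2, and CCR7, at -0.04 without a call, had 0.57. Against HDLM2 and L540 only, ACKR3 had 0.13 and CD14 0.09 log2. With the 8 numbered arrays and the block, EBF1 had -0.06 and GZMB 0.46 log2. With 1 line or array left out, EBF1 ranged from -0.06 (without L540) to 1.18, CD3D from -1.03 to 0.04 (without KM-H2), CD14 from -0.96 to 0.12 (without KM-H2) and GZMB from -2.07 to 0.46 log2 (without L540). Signal near background limits what the dimmest genes can show.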
